A study of Rattus norvegicus with 3 samples.

Results

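Immediate early genes are transcribed within minutes of a stimulus without new protein synthesis. In skeletal muscle, calcium and kinase signals of contraction, and also adrenergic signals, are among the inducers of such genes. The genes followed here are 10 of these, linked to muscle activity: *Fos*, *Fosb*, *Jun*, *Junb*, *Egr1*, *Atf3*, *Nr4a1*, *Nr4a3*, *Dusp1* and *Ier3*. They were found as non-control probes whose RefSeq accession carries one of these 10 symbols, and 9 genes, each with 1 probe, were found among 15168 genes with a probe (30367 probes in all). *Fosb* matched no probe and has no value. All 9 were well above background on at least 1 array, and 8 on all 3 arrays. The exception was *Nr4a3*, too faint for that call in the normal soleus.

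The samples were calf muscles of male rats aged 12 weeks on a background labelled Wistar Honnover, each hybridised to a one-colour Agilent array. One array held the soleus, a slow postural muscle, of untreated rats, 1 held the plantaris, a faster neighbour, of untreated rats, and 1 held the soleus taken 28 days after about 5 mm of the left sciatic nerve was cut out at the level of the buttock. Cutting this nerve removes motor drive from the calf muscles. How many animals each array stands for is unstated in the labels. Because no group has a second array, nothing could be tested between groups, and each fold describes these arrays alone.

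Levels are signals divided by the 75th percentile of the array's non-control spots, so 1 means the brightness of that percentile. Folds are in log2 units with the scanner software's error (±), which covers measurement only. A difference of at least 2-fold (1 log2 unit) is counted, which is a rule of size. Of 30367 probes, between 64.2% and 67.0% were well above background on each array, and 0 spots were saturated. Fibre markers followed the labels: all 6 slow fibre markers were at least 2-fold lower in plantaris than in normal soleus and all 6 fast fibre markers at least 2-fold higher. After denervation 5 of 6 slow fibre markers were at least 2-fold lower (median -1.35, with 1 of 6 lower under quantile normalization). Of 6 fast fibre markers 4 were at least 2-fold higher (median 2.87). Of all genes, 6.11% were lower and 5.71% higher in plantaris by that rule, and 13.4% lower and 8.73% higher after denervation. The summed slow markers were 2605 in normal soleus, 1155 in denervated soleus and 486 in plantaris, and the summed fast markers 254, 467 and 3298. The part of this fibre shift in the folds of the immediate early genes was not tested. The normal soleus and plantaris arrays shared a slide and the denervated array lay on another, so slide and denervation cannot be told apart. In whole muscle, fewer cells of a type and less RNA per cell cannot be told apart either.

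The immediate early genes did not behave as a block after denervation. *Nr4a1*, *Dusp1* and *Atf3* were at least 2-fold lower in the denervated soleus than in the normal soleus, *Egr1* lay just short of 2-fold lower, and *Fos*, *Jun*, *Junb* and *Ier3* were slightly higher. That is 3 of 9 genes lower (33.3%) against 13.4% of all 11318 genes compared, and 0 of 9 higher against 8.73% (22.1% of all genes were apart in either direction). The median log2 fold of the 9 genes was 0.22, beside 0.02 for all genes. That of the 9 was 0.46 in the authors' deposited values. With normexp background that median was 0, which is the bound of *Nr4a3* cut at 0 and not a measured fold. Where both arrays had to be well above background, which leaves out *Nr4a3*, it was -0.36 over 8 genes, so its sign is not settled. With 9 genes and 1 array on each side, neither share was tested. In the authors' deposited values the median of all genes itself stood at 0.26, and calls split into 1568 higher and 1107 lower genes in place of 988 and 1518. Quantile normalization put that median at 0.14.

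**Figure D1:**
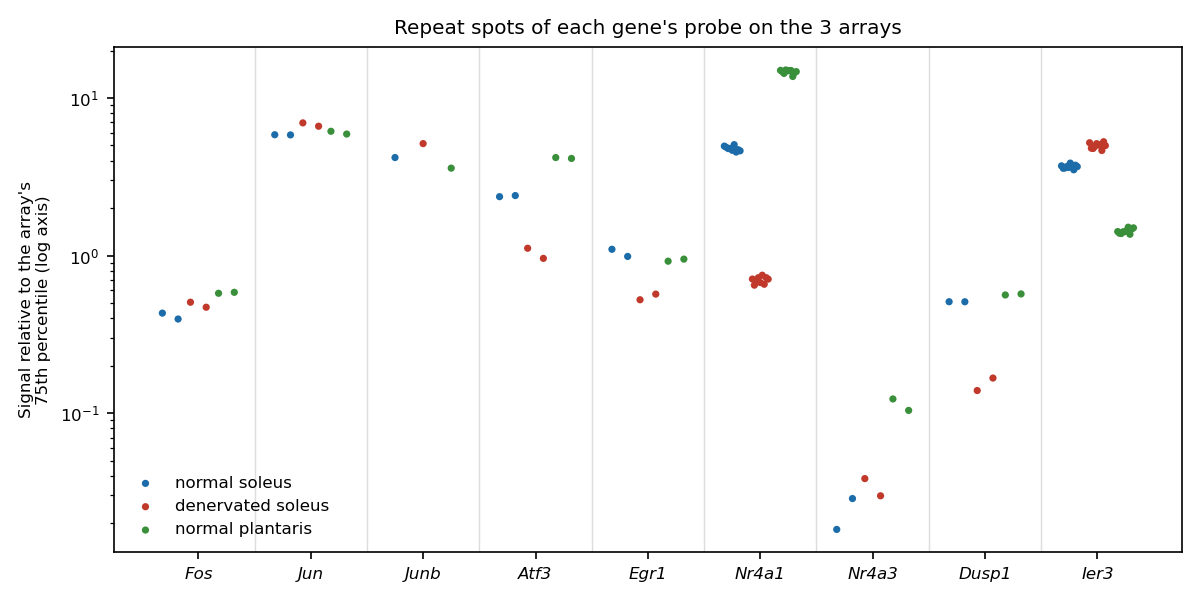
Signal of every kept repeat spot of the 9 probes (y axis, relative to the array's 75th percentile, log scale) on the normal soleus, denervated soleus and plantaris arrays. *Nr4a1* spots lie between 0.649 and 0.750 in the denervated soleus and between 13.7 and 15.1 in plantaris, while *Jun* spots of all 3 arrays lie between 5.83 and 6.95.

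*Nr4a1* encodes the orphan nuclear receptor Nur77, which in muscle is induced by contraction and adrenergic signals and acts on genes of glucose use. Its probe has 10 spots per array. On the normal soleus array 9 kept spots ran from 4.54 to 5.05 with a median of 4.77. On the denervated soleus array 9 kept spots ran from 0.649 to 0.750 with a median of 0.709. On the plantaris array 10 spots ran from 13.7 to 15.1 with a median of 14.8. The 3 ranges are of repeat spots on single arrays, so they show spot scatter and not spread between muscles. From high to low the order was plantaris, normal soleus, denervated soleus. The log2 fold of denervated over normal soleus was -2.78 ± 0.20, a 6.85-fold lower level, and only 1.21% of the genes compared had a lower fold.

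*Dusp1* encodes a phosphatase that switches off MAP kinases, itself made in response to their activity. Its repeat spots read 0.509 and 0.509 in normal soleus, 0.139 and 0.167 in denervated soleus, and 0.562 and 0.571 in plantaris. The denervated muscle stood alone at the low end. *Dusp1* was 3.34-fold lower after denervation (-1.74 ± 0.21, or -1.40 with normexp background), with 4.74% of genes at a lower fold.

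*Atf3* encodes a stress-induced factor of the ATF/CREB family that often represses its targets. Its spots read 2.36 and 2.40 in normal soleus, 0.959 and 1.11 in denervated soleus, and 4.13 and 4.19 in plantaris. The arrays fell in the same order as for *Nr4a1*. The denervated soleus was 2.31-fold lower than the normal one (-1.21 ± 0.20), a difference that fell short of 2-fold in the authors' deposited values (-0.96).

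*Egr1* encodes a zinc finger factor induced by growth factor and stretch signals. Its spots averaged 1.04 in normal soleus, the lower at 0.987, and read 0.524 and 0.569 in denervated soleus, and 0.921 and 0.949 in plantaris. The spots of the denervated array were the lowest and those of the normal muscles lay close together. The log2 fold after denervation was -0.93 ± 0.20, with 14.7% of genes lower, and it was short of 2-fold in every alternative run (-0.69 in the authors' deposited values).

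The AP-1 subunits went another way. AP-1 is a dimer of a Fos with a Jun protein, or of 2 Jun proteins, that binds the promoters of growth and matrix genes. *Jun* spots read 5.83 and 5.84 in normal soleus, 6.62 and 6.95 in denervated soleus, and 5.90 and 6.15 in plantaris. *Fos* spots read 0.395 and 0.431 in normal soleus, 0.470 and 0.506 in denervated soleus, and 0.576 and 0.584 in plantaris. *Junb*, with a single spot per array, read 4.19, 5.13 and 3.59 in the same order of arrays. After denervation the 3 log2 folds lay between 0.22 for *Jun* (± 0.20) and 0.29 for *Junb* (± 0.20), with *Fos* at 0.24 ± 0.21. None was near 2-fold, and each exceeded its scanner error by less than 0.1 log2 units.

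*Ier3* encodes a survival factor induced by growth factors and stress. Its 10 spots ran from 3.50 to 3.86 in normal soleus, from 4.64 to 5.28 in denervated soleus and from 1.37 to 1.51 in plantaris, with medians of 3.67, 5.00 and 1.42. These ranges again show spot scatter only, and the order of the arrays was the reverse of that of *Nr4a1*. After denervation the log2 fold was 0.44 ± 0.20, or 1.36-fold, with 25.6% of genes at a higher fold.

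*Nr4a3* encodes NOR1, a close relative of Nur77, and its probe was faint. Its spots read 0.0183 and 0.0287 in normal soleus, where neither was well above background, 0.0299 and 0.0384 in denervated soleus, and 0.104 and 0.123 in plantaris. The spots of the 2 soleus arrays lie close together and the plantaris spots stand above both. Denervated over normal soleus gives a bound of 0.57 with an error of 0.50, and normexp background takes that bound to 0.

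**Figure D2:**
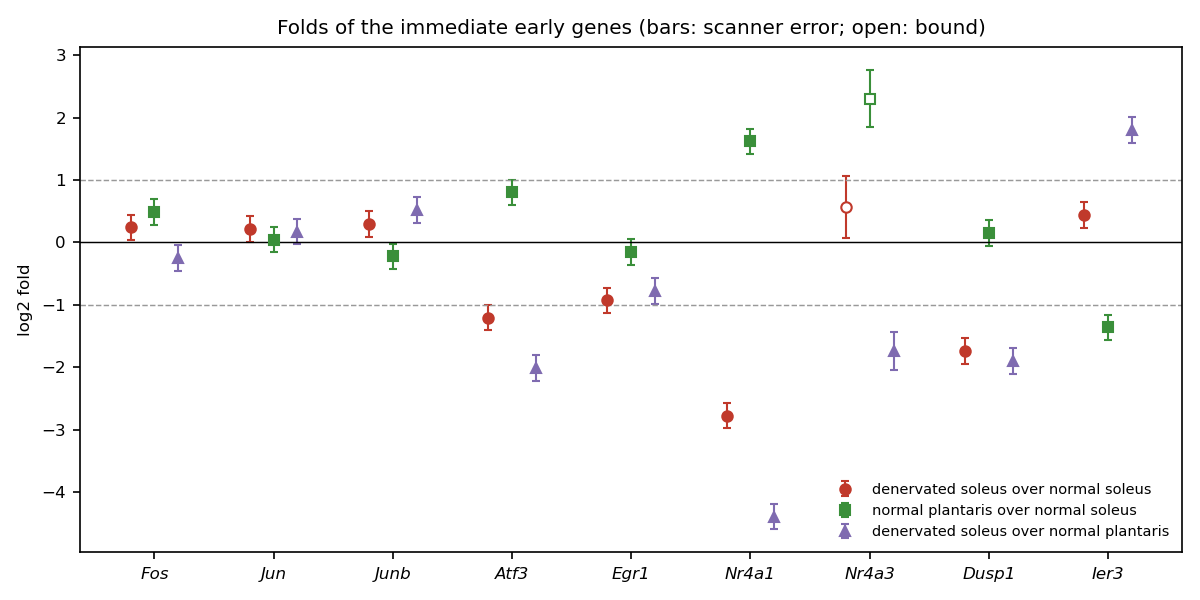
Log2 fold of each gene (y axis) in 3 comparisons, with bars for the scanner software's error, open symbols for bounds and dashed lines at 2-fold. *Nr4a1* stands at -2.78, 1.62 and -4.40, while *Fos*, *Jun* and *Junb* stay inside the dashed lines in all 3.

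Promoters are shown for the 2 genes lowest after denervation, and for *Junb* as a member that was not lower, because cyclic AMP and calcium signals reach many immediate early promoters through the cyclic AMP response element. They are the 250 bases before the RefSeq gene start on GRCr8, 5′ to 3′: *Nr4a1* at chr7:134259888-134260137, *Dusp1* at chr10:17184603-17184852 and *Junb* at chr19:40080876-40081125, each on the plus strand. Capitals mark TGACG, the short core of that element, on either strand (as TGACG or CGTCA), and overlapping copies are joined.
Nr4a1: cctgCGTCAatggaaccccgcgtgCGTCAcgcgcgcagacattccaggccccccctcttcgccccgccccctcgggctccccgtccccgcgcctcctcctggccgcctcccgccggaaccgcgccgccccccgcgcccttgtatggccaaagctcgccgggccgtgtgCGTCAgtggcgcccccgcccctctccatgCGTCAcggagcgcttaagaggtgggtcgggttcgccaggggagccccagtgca
Dusp1: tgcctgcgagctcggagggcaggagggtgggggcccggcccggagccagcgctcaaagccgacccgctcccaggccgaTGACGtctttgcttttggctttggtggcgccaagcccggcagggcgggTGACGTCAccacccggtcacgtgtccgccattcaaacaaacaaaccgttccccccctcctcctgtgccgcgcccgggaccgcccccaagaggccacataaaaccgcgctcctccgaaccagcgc
Junb: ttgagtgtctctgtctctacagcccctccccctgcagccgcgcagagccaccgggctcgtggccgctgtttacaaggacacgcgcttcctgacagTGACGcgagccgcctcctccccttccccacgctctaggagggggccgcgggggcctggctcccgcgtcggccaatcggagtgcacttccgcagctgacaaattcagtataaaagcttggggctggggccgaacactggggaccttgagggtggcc

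*Nr4a1* holds 4 cores, the nearest ending 49 bases before the start. *Dusp1* holds a full TGACGTCA between 124 and 117 bases before the start and a separate core between 172 and 168. *Junb* holds 1 core, between 155 and 151 bases before the start. Promoters of 5 of the 10 genes are in the table, and 4 of these hold TGACG on either strand, as do 18.2% of 33469 promoters of the same length. The full TGACGTCA, which holds the core on both strands, is in 1 of the 5 and in 1.59% of all. The CArG box, bound by serum response factor and searched on both strands, is in 1 of the 5, *Egr1*, with 2 copies, and in 501 of the 33469 promoters. These matches describe letters only, and *Nr4a1*, *Dusp1* and *Junb* all carry the core. *Atf3*, also at least 2-fold lower after denervation, is not among the 5 promoters.

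In the comparison of the fast with the slow muscle the members again went in different directions. *Nr4a1* was 3.07-fold higher in normal plantaris than in normal soleus (1.62 ± 0.20), with only 2.12% of genes at a higher fold. *Nr4a3* was 4.94-fold higher (2.30 ± 0.46), taken against a normal soleus signal not well above background. That bound shrank to 0.97 with normexp background, so 4.94-fold is not a minimum. *Ier3* was 2.57-fold lower (-1.36 ± 0.20), with 3.54% of genes lower. So 2 of 9 genes were higher (22.2%) against 5.71% of all 11015 genes compared, and 1 of 9 lower (11.1%) against 6.11% (11.8% of all genes were apart in either direction). Neither share was tested, and the median over the 9 genes was 0.15 beside 0.02 for all.

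The remaining members lay within 2-fold between the normal muscles. *Atf3* was closest to the threshold at 0.80 ± 0.20. *Fos* stood at 0.49 ± 0.21, *Dusp1* at 0.15 ± 0.21, *Egr1* at -0.15 ± 0.20 and *Junb* at -0.22 ± 0.20. *Jun* was at 0.05 ± 0.20, and its sign turned under quantile normalization and in the authors' deposited values. For *Dusp1*, *Egr1* and *Jun* the difference was within the scanner error.

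**Figure D3:**
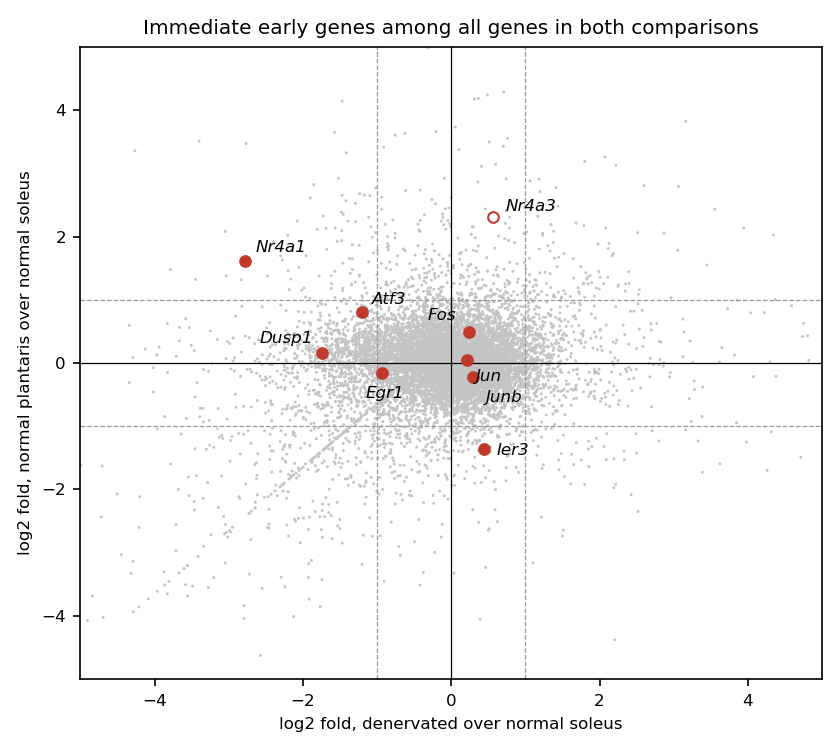
Each grey point is 1 of 10727 genes entering both comparisons, placed by log2 fold of denervated over normal soleus (x axis) and of plantaris over normal soleus (y axis), with the 9 genes in red, *Nr4a3* open as a bound, and 22 genes outside the axes. Both axes share the normal soleus array. *Nr4a1* lies far left and high (-2.78, 1.62) and *Ier3* on the other side of both axes (0.44, -1.36).

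Denervated soleus against normal plantaris shares its arrays with the other comparisons and adds no independent value. *Nr4a1* was 21.0-fold lower in the denervated soleus (-4.40 ± 0.20), and 0.237% of 11371 genes had a lower fold. *Atf3* stood at -2.01 ± 0.20, *Dusp1* at -1.89 ± 0.21 and *Nr4a3* at -1.74 ± 0.30, while *Ier3* was 3.48-fold higher (1.80 ± 0.20). That is 4 of 9 lower against 16.7% of all genes and 1 of 9 higher against 12.0% (28.7% of all genes were apart in either direction). In the authors' deposited values all genes split into 2456 higher and 1213 lower in place of 1363 and 1899, and under quantile normalization into 1792 and 1522. *Jun* (0.17) and *Egr1* (-0.78) were within 2-fold, as were *Junb* (0.52) and *Fos* (-0.25, or 0.10 in the authors' deposited values).

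Related genes were read from 7 lists of the wider pathway. Of other AP-1 subunits and partners 0 of 12 were higher and 1 lower after denervation (median -0.12), beside 8.73% and 13.4% of all genes. The lower one, *Fosl1*, was a bound of -1.47 with an error of 1.53, or -0.73 with normexp background. *Jund*, the Jun family member that is made at steady levels, stood at -0.71 ± 0.20, and the AP-1 repressor *Jdp2* at 0.92 ± 0.33, with 0.09 under normexp background but 1.02 under quantile normalization and 1.16 in the authors' deposited values, which make it 1 gene higher. Between the normal muscles 0 of 12 were higher and 1 lower, beside 5.71% and 6.11% of all genes. The lower one was again *Fosl1* as a bound (-1.11, error 1.27, or -0.17 with normexp background).

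Among other fast-response transcription regulators 0 of 20 were higher and 5 lower in the denervated soleus (median -0.22), beside 8.73% and 13.4% of all genes. With normexp background 3 were lower. *Nr4a2*, the third NR4A receptor, was 4.65-fold lower (-2.22 ± 0.21) and -1.54 on its second probe. *Nfil3*, a basic leucine zipper repressor, was lower by a log2 fold of -2.20 ± 0.25, the clock gene *Per1* by -1.49 ± 0.28 (-0.91 with normexp background) and *Klf2*, a factor of endothelial cells, by -1.21 ± 0.21 (-0.97 in the authors' deposited values). *Egr3* was a bound of -1.27 ± 0.51 and -0.67 with normexp background. In plantaris against normal soleus none of the 20 passed 2-fold in either direction on the probe used, beside 5.71% and 6.11% of all genes. *Klf10* came closest at 0.96 ± 0.20 (1.03 with median centring). *Ier5* stood at -0.78 ± 0.20, but at -1.01 on its second probe.

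Fast-response effectors had 0 of 20 higher and 3 lower after denervation (median -0.21), beside the same 8.73% and 13.4%. In the authors' deposited values 2 were higher. *Arc*, known as an activity-regulated gene of neurons, was 6.56-fold lower (-2.71 ± 0.22). *Rcan1*, an inhibitor and target of calcineurin, was at -2.27 ± 0.20, and at -3.32 on its second probe. Between the normal muscles *Homer1*, a scaffold at calcium channels, stood at 1.42 ± 0.20 and the kinase *Sgk1* at 1.16 ± 0.21 (0.98 with normexp background) in plantaris, against -2.02 ± 0.20 for *Rcan1*. *Phlda1* was a bound of -1.02 ± 0.53, or -0.05 with normexp background and -0.96 with median centring. So 2 of 19 were higher and 2 lower, beside 5.71% and 6.11% of all genes.

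Of 8 other MAP kinase phosphatases 0 were higher and 2 lower in the denervated soleus (median -0.41), beside 8.73% and 13.4% of all genes. *Dusp8*, which acts on stress-activated kinases, was 6.02-fold lower (-2.59 ± 0.21), beside *Dusp1* at -1.74. *Dusp4* was at -1.28 ± 0.42, or -0.69 with normexp background, and *Dusp14* lay just short of the threshold, 1.99-fold lower, and passed it with median centring. In plantaris 0 of 7 passed 2-fold in either direction, beside 5.71% of all genes higher and 6.11% lower, with *Dusp10* highest at 0.91 ± 0.24.

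**Figure D4:**
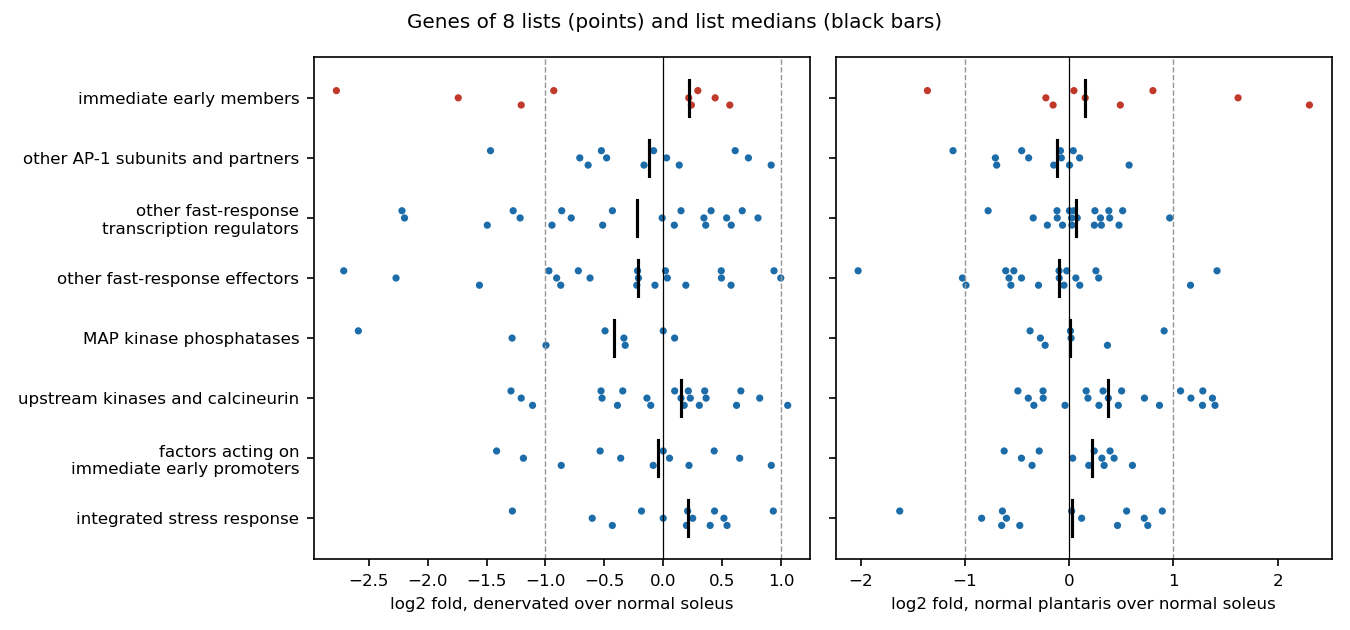
Log2 folds of single genes (points) in the 9 measured members (red) and 7 related lists (blue), with the list median as a black bar and dashed lines at 2-fold; left, denervated over normal soleus, right, plantaris over normal soleus. The 9 members spread from -2.78 to 0.57 on the left, and 6 kinase and calcineurin genes lie above 1 on the right.

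Genes upstream of the members carry calcium and kinase signals to their promoters. Of 21 kinase and calcineurin genes 6 were at least 2-fold higher in plantaris and 0 lower (median 0.38), beside 5.71% and 6.11% of all genes. With normexp background 3 were higher. All 3 calcineurin genes measured were among them, the catalytic subunits *Ppp3cb* (1.28 ± 0.20) and *Ppp3ca* (1.17 ± 0.21, or 0.99 with normexp background) and the regulatory subunit *Ppp3r1* (1.37 ± 0.21). *Camk2d* stood at 1.40 ± 0.23, *Camk2a* at 1.07 ± 0.23 and the ribosomal S6 kinase *Rps6ka2* at 1.28 ± 0.21 (0.79 on its second probe). With normexp background *Camk2a* came to 0.70 and *Camk2d* to 0.91, and in the authors' deposited values *Camk2a* came to 0.96. After denervation 1 of the 21 was higher and 3 lower (median 0.15), beside 8.73% and 13.4% of all genes. These were *Camk2d* at 1.06 ± 0.23 (0.59 on its second probe, 0.46 with normexp background) against *Rps6ka2* at -1.29 ± 0.21, *Camk2a* at -1.21 ± 0.29 and the kinase ERK1, *Mapk3*, at -1.11 ± 0.20. *Camk2a* came to -0.71 with normexp background and *Mapk3* to -0.73 under quantile normalization, and both were short of 2-fold in the authors' deposited values (-0.96 and -0.87).

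Of 12 factors that act on immediate early promoters 0 were higher and 2 lower after denervation (median -0.04), beside 8.73% and 13.4% of all genes. *Mef2d*, a calcium-responsive factor, was at -1.41 ± 0.20, and *Nab1*, a corepressor of EGR proteins, was a bound of -1.19 ± 0.55, which came to -0.65 with normexp background and -0.94 in the authors' deposited values. Serum response factor itself, *Srf*, stood at -0.87 ± 0.20 and its partner *Elk1* at 0.92 ± 0.24. *Elk1* came to 0.33 with normexp background and to 1.16 in the authors' deposited values, and it also passed 2-fold under quantile normalization. None of the 12 passed 2-fold between the normal muscles, beside 5.71% of all genes higher and 6.11% lower. There *Mef2a* stood at 0.61 ± 0.21 and *Nab1*, a bound, at -0.62.

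The integrated stress response, in which ATF4 can induce *Atf3*, had 0 of 13 genes higher and 1 lower after denervation (median 0.21), beside 8.73% and 13.4% of all genes. The lower one was *Atf4* (-1.28 ± 0.20, or -0.95 under quantile normalization), next to *Atf3* at -1.21. Its other members lay within 2-fold, with *Psat1*, an enzyme of serine synthesis, at 0.93 ± 0.21 (1.18 in the authors' deposited values) and *Ppp1r15a* at -0.60 ± 0.20. Between the normal muscles *Gdf15* was a bound of -1.63 ± 0.53 and -0.38 with normexp background. No other of the 13 passed 2-fold, beside 5.71% of all genes higher and 6.11% lower.

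Other cell types also express immediate early genes, and some of their markers differed between the arrays. After denervation 3 of 7 endothelial markers were at least 2-fold lower and 0 higher (median -0.60), beside 13.4% and 8.73% of all genes. With normexp background 2 were lower. Summed, the endothelial list stood at 13.2 in normal soleus, 7.19 in denervated soleus and 10.7 in plantaris. Of 5 adipocyte markers, 4 were at least 2-fold higher (median 2.68), and the list summed to 15.4, 67.7 and 13.0 in the same order. Of 8 markers of fibroblasts and tendon, 2 were higher (summed levels 105, 244 and 204), and 3 with the mean over probes. The number was 5 under quantile normalization and 6 in the authors' deposited values, where 10.6% and 13.9% of all genes were higher. Of 7 for smooth muscle and pericytes 1 was lower (10.6, 7.57 and 8.25), close to the 13.4% of all genes. That count was 0 with normexp background and in the authors' deposited values. None of 8 macrophage markers (30.1, 29.8 and 19.6) or 4 blood cell markers (107, 109 and 78.7) passed 2-fold after denervation. In normal soleus every marker compared passed the background call, none being at 0, and their part in the folds of the 9 genes was not tested.

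Over the 3 arrays, the genes closest in profile to each member that differed by at least 2-fold and was well above background on all 3 arrays, which leaves out *Nr4a3*, were found by Euclidean distance of centred log2 levels, among genes at least 2-fold apart in the same comparisons and direction. For *Nr4a1* only 73 genes qualified, and the closest were *Pfkfb1* (distance 0.23), *Asb11* (0.38) and *Abra* (0.40). For *Dusp1* they were *Gnao1*, *Zfp516* and *Sdhc* (0.02 to 0.03) and for *Atf3* *Lpin1*, *Pla2g1b* and *Speg* (0.03 to 0.04), each among 874 genes. For *Ier3* they were *Aspn* (0.04), *Rabep2* (0.05) and *Epb41l4a* (0.09) among 186. Each profile has 3 points, so the distances describe these arrays only.

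**Figure D5:**
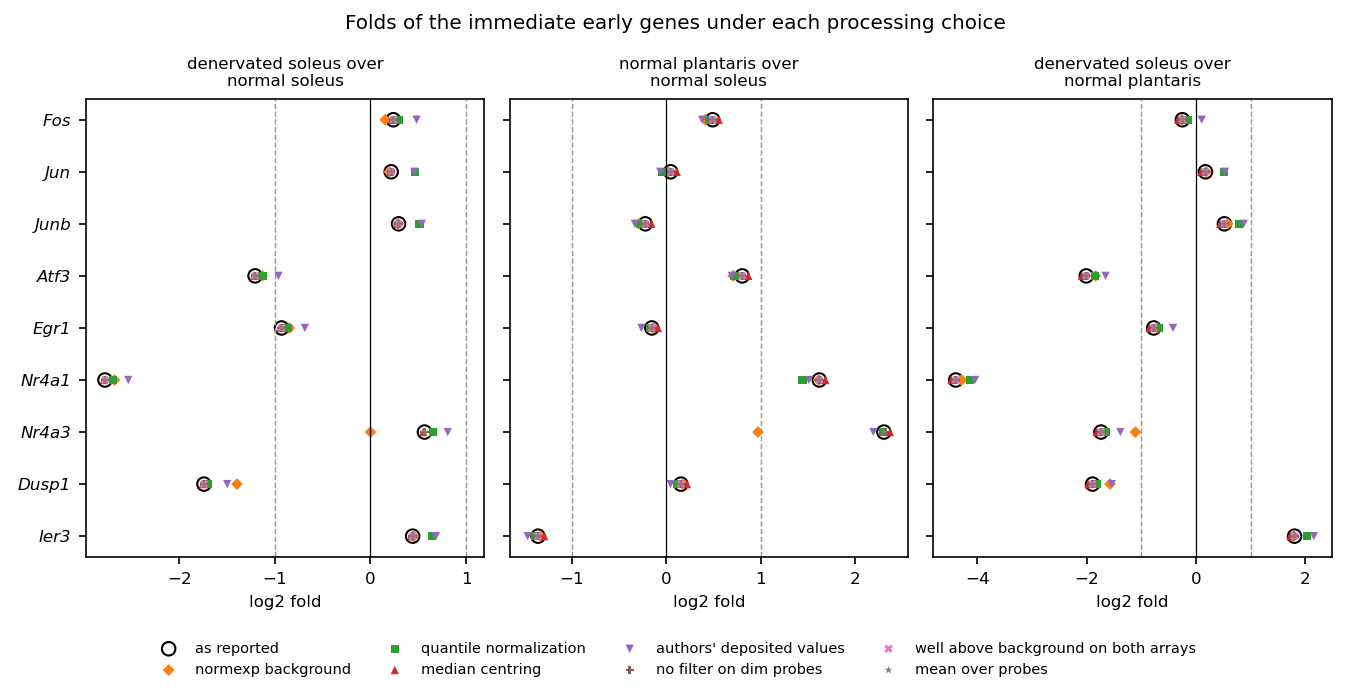
Log2 fold of each gene (x axis) in the 3 comparisons as reported (open circles) and under 7 processing alternatives, with dashed lines at 2-fold. *Nr4a1*, *Dusp1* and *Ier3* stay on their side of the lines, while *Atf3* crosses in the left panel (-0.96) and *Nr4a3* in the middle one (0.97).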

How the data were processed

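RNA of the 3 muscle groups was hybridised to one-colour (Cy3) arrays, 1 per group. Per the file headers and the submitters' processing notes, Agilent Feature Extraction 10.10.1.1 made the processed signal, an intensity that is background-subtracted and detrended within the array, with no normalization between arrays, as well as raw spot intensity, local background and flags. The value table that the authors deposited also holds intensity: it equals the processed signal times 1.60 (normal soleus), 1.41 (denervated soleus) and 1.80 (plantaris), and the labels do not say where these factors come from.

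Log2 processed signals were centred on each array's 75th percentile of 58717 non-control spots. Between 467 and 569 spots per array with outlier flags were dropped, repeat spots averaged, and a probe called well above background where at least 50% of its spots were. Accessions were named through the RefSeq table of GRCr8, which gave a symbol to 18005 of 30367 probes. The brightest probe stood for a gene. A gene entered a comparison if well above background on at least 1 of both arrays. Where it was so on 1 only, the fold is a bound, taken against the faint signal itself or, if larger, the array's dimmest signal that passed the call. The error is the root mean square of the spots' scanner errors, not reduced for repeat spots.

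The members and lists were chosen with earlier results of these data known. By rule, all members, up to 3 genes per list with the largest folds among those well above background on both arrays (denervated and plantaris, each over normal soleus), and the 3 closest profiles were named. Other list genes past 2-fold, bounds, and genes of denervated soleus over plantaris were chosen after their values were seen. One gene that the rule names is not reported here. Alternatives were normexp background (limma 3.58.1, offset 50, on median signals since the files hold no mean signal), quantile normalization, median centring, the authors' values, other filters and a mean over probes. The folds were tested on simulated data with planted changes. Python 3.11.15 and R 4.3.3 were used.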

Additional observations from a re-analysis of the deposited data

How the results depend on the processing

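Of 27 folds of the 9 genes, 11 were at least 2-fold, and all 11 kept their direction under the alternatives that gave a value. Past 2-fold in each of them were 9. The exceptions were *Atf3* in denervated over normal soleus, at -0.96 in the authors' deposited values, where the array factors differ from the 75th percentiles, and *Nr4a3* in plantaris over normal soleus, at 0.97 with normexp background, a bound on a faint probe that also has no value when both arrays must be well above background. Genes higher in plantaris over normal soleus therefore numbered 1 in place of 2 under both of these alternatives. Over the named genes and alternatives, 1052 of 1263 folds moved by less than the scanner error and 0 turned direction after passing 2-fold. The other filters and the mean over probes cannot change the fold of a 1-probe gene well above background on both arrays. Such unchanged folds are counted in the 1052, and each of the 9 genes has 1 probe, so these alternatives say little about them. Median centring moved all folds of a comparison alike, by less than any scanner error. The authors' deposited values did nearly the same in plantaris over normal soleus. Those folds had to fall in the 1052. A bound that would turn direction is set to 0, so it could turn only where the filter was dropped. Counts over all genes moved more: with normexp background 367 genes were higher and 1001 lower in denervated over normal soleus, 309 and 282 in plantaris over normal soleus, where 629 and 673 had been, and 504 and 1310 in denervated soleus over plantaris. The authors' deposited values gave 1568 and 1107, and 2456 and 1213, for the comparisons with the denervated muscle, and put the median of all genes at 0.26 and 0.36. Quantile normalization put it at 0.14 and 0.17, and dropping the filter at -0.11 and -0.15. No paired analysis was possible because each group has 1 array. No replicate could be left out for the same reason. The sources of precision are limited to repeat spots and scanner error, and faint probes such as that of *Nr4a3* are limited by their signal over background.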

Other observations

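In denervated soleus against plantaris, a comparison that reuses both arrays, the gene furthest apart in each of the 7 related lists, among genes well above background on both arrays, was as follows. *Arc* stood at -2.62 ± 0.22, *Nr4a2* at -2.60 ± 0.21, *Dusp8* at -2.60 ± 0.21 and *Rps6ka2* at -2.57 ± 0.21. *Atf4* stood at -1.74 ± 0.20 and *Mef2d* at -1.06 ± 0.20, the latter -0.71 in the authors' deposited values and -0.89 under quantile normalization. *Batf3* was the one on the high side, at 1.32 ± 0.28, or 0.31 with normexp background. Among bounds, *Gdf15* was higher in the denervated soleus at 2.06 ± 0.52, or 0.34 with normexp background.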
